A study of Mus musculus with 4 samples.

Results

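Immediate early genes are switched on within minutes of a stimulus, without new protein synthesis, and most of them encode transcription factors or short-lived regulators. The 10 genes described here are Fos, Fosb, Jun, Junb, Jund, Atf3, Egr1, Ier2, Btg2 and Klf2, out of 31053 genes in the files. They were chosen by symbol because an earlier summary of the same libraries had placed their level in STAT5 knockout cells lower than control in one sorted population and higher in the other. The values that chose them are therefore given as a description, with no test.

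Mouse bone marrow was profiled by droplet single-cell RNA sequencing in 4 libraries, 1 for each of 4 groups. KLS cells, the fraction that holds hematopoietic stem and multipotent progenitor cells, were sorted after lineage depletion as c-Kit-positive and Sca-1-positive cells, from 4 mice of 8 to 12 weeks. The stromal cells, taken at an age of 6 to 8 weeks, were sorted for Sca-1 and CD140a among cells that lack CD45 and CD71 and carry little or no Ter119. Both sorts were made from control mice (Vav1-Cre/+STAT5ab+/+) and from STAT5 knockout mice (Vav1-Cre/+STAT5abfl/fl). All mice thus carry the Vav1-Cre transgene, which is known for its activity in blood cells, so the knockout models loss of STAT5 in blood cells. Only the stromal protocol describes a warm collagenase digestion of crushed bone. The labels do not say whether mice were pooled in a library, which day each library was made, or how many mice gave the stromal cells. With 1 library per group, genotype cannot be told apart from mouse, preparation or handling, and the intervals given here (95%) cover counting error only.

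The products of Fos, Fosb, Jun, Junb and Jund pair through leucine zippers to form AP-1, a transcription factor that binds its own short DNA motif, and Atf3 encodes a relative that pairs with Jun proteins and often represses. Egr1 and Klf2 encode zinc finger factors. Growth factor and stress kinases act on Fos and Egr1 through serum response factor and its partners, and the RNAs decay fast, so that a short stimulus gives a short pulse. In stem and progenitor cells Egr1 is known for its part in quiescence and Klf2 for quiescence and trafficking of lymphoid cells. Btg2 encodes a protein that restrains proliferation, and Ier2 a small nuclear protein. The same genes are widely known to rise while tissue is digested and cells are sorted.

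The genes lie on chromosomes 12 (Fos), 7 (Fosb), 4 (Jun), 8 (Junb, Jund, Ier2 and Klf2), 1 (Atf3 and Btg2) and 18 (Egr1) in the GRCm38 annotation. RefSeq promoter sequences on GRCm38.p6 matched 8 of the 10, all but Egr1 and Ier2. The 250 bases before the start site are shown for 4 genes, chosen because Fos and Jun were higher in knockout cells of both sorts without the shared barcodes described below and Btg2 and Klf2 went opposite ways. Fos lies at chr12:85473640-85473889 (plus strand), Jun at chr4:95052223-95052472 (minus), Btg2 at chr1:134079156-134079405 (minus) and Klf2 at chr8:72318812-72319061 (plus). Each is written 5′ to 3′ on the strand of the gene, and capitals mark a CRE (the site of CREB and ATF factors), a TATA box or a GC box on either strand.
Fos: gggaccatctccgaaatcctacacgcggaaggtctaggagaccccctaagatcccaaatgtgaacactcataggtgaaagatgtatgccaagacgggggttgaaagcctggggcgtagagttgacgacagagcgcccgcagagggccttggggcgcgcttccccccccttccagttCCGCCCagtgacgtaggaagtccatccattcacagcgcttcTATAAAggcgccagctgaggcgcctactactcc
Jun: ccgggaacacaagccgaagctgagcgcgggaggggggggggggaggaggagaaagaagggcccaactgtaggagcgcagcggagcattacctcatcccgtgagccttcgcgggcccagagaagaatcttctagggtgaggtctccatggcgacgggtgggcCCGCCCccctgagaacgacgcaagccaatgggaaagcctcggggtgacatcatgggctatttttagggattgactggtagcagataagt
Btg2: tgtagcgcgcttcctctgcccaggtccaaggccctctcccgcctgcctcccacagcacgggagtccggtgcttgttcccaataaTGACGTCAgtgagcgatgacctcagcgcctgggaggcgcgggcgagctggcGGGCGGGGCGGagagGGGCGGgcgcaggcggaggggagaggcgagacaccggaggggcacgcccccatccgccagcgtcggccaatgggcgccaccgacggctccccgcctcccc
Klf2: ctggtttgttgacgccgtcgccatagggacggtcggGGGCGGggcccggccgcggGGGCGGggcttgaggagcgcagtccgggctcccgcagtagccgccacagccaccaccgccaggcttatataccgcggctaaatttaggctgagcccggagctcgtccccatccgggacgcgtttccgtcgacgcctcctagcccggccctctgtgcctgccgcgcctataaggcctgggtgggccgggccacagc
The GC box (GGGCGG) was found in 6 of the 8 promoters, namely Fos, Fosb, Jun, Atf3, Btg2 and Klf2, beside 32.7% of 32851 promoters of this length. The full CRE (TGACGTCA) was found in Btg2 alone of the 8 (1.55% of all promoters), and the TATA box (TATAAA) in Fos alone (12.4%). The letters GCGNGGGCG, a site of EGR factors that can overlap a GC box, were found in Fosb, Btg2 and Klf2 (4.7%). The AP-1 letters TGANTCA (6.75% of all promoters), the STAT letters TTCNNNGAA (7.02%) and the CArG box of serum response factor (1.47%) were not found in these windows for any of the 8. The RefSeq start behind the window of Jund (chr8:70697489-70697738) differs from the start of the gene at 70698949 in the annotation above, so that window does not adjoin the gene as annotated there. The window of Atf3 (chr1:191183334-191183583) lies inside the annotated gene, whose start on the minus strand is at 191218039. That of Klf2 runs past the annotated start at 72319033, and that of Fosb also reaches into the gene. Those of Btg2 and Junb stop short of the annotated start. The GC content was 58.4% for Fos, 61.2% for Jun, 73.2% for Btg2 and 71.2% for Klf2, beside a median of 52.4% over all promoters.

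The genes of the sorts were read over the cells compared. Clusters with Ptprc were left out of the stromal cells, and stromal-looking shared barcodes, described below, out of the KLS cells. The absence of Ptprc and Pdgfra there partly follows from those filters and is no check of the sorts. Stat5a in KLS knockout cells was at 9.84% of control (8.95 to 10.8) and Stat5b at 7.38% (6.58 to 8.25), while in stromal cells their log2 ratios of knockout over control were 0.52 (0.01 to 1.03) and −0.15 (−0.68 to 0.36). Ptprc, which encodes CD45, had no UMI in the stromal cells of either genotype (a count of 0 allows up to 2.91 CPM in the smaller library), and Pdgfra, which encodes CD140a, had none in KLS cells (up to 0.0587 CPM). UMIs are unique molecular identifiers, and CPM is UMIs per 1000000 over all genes. Of 9 blood cell markers, 3 had a UMI in stromal control (43.3 CPM in sum) and 4 in stromal knockout (64.9 CPM), beside 3156 and 2896 CPM in the KLS libraries. Of 12 erythroid markers, 10 had a UMI in each stromal group (Klf1 and Car1 had none), and they summed to 2969 CPM in stromal control and 345 CPM in stromal knockout. Hbb-bs, a hemoglobin gene, stood at 1530 and 73.6 CPM there, and the part of this RNA in the stromal results was not tested. Of 577 kept cells in the stromal control library and 374 in the stromal knockout library, 124 and 95 were erythroid-like. A cluster with Ptprc held 50 and 35 cells, and both kinds were left out of the stromal cells. The cells compared numbered 3085 in KLS control, 6726 in KLS knockout, 403 in stromal control and 244 in stromal knockout, with median depths of 15136, 10085, 3610 and 3471 UMIs. The KLS knockout cells were thus shallower than the control cells, and their median mitochondrial share was lower (2.91% beside 4.44%).

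Cell barcodes were shared between libraries, and the direction of several of the 10 genes turned on them. Of all barcodes, 119 occurred in 2 libraries, 237 in 3 and 42 in all 4. In KLS control, 369 of 3454 kept cells had a barcode that held more UMIs in another library, for 361 of them one of the stromal libraries. In KLS knockout the same held for 261 of 6987 cells, 256 of them larger in a stromal library. Those cells looked stromal, with Col1a1 at 2856 CPM in KLS control and 2441 CPM in KLS knockout, against 0.137 and 0.144 CPM in the other cells. They held 0.696% of the UMIs of KLS control but 8.77% of the UMIs of the 10 genes, and 0.321% and 4.51% in KLS knockout. They made up 630 of 10441 kept KLS cells (6.03%). The study's design text gives 605 CD45-negative cells among 10008 sorted KLS cells (6.05%). Ptprc stood at 36.3 and 12.2 CPM in the shared-barcode cells of KLS control and knockout, against 153 and 154 CPM in the other KLS cells. Whether they are the cells the study counted was not tested. These cells were left out of the values below, and values with them are given where the direction turned.

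The 10 genes summed to 1364 CPM in KLS control (1354 to 1374) and 1301 CPM in KLS knockout (1293 to 1309). In stromal cells they summed to 20485 CPM in control (20257 to 20715) and 25314 CPM in knockout (25008 to 25623). The knockout sum was thus 0.07 lower in KLS cells (log2 ratio −0.07, −0.08 to −0.05) and 0.31 higher in stromal cells (0.28 to 0.33) on the log2 scale. The pattern that chose the genes held for 5 of them taken singly: Jund, Egr1, Ier2, Btg2 and Klf2 were lower in KLS knockout cells and higher in stromal knockout cells, Egr1 and Klf2 with stromal differences within counting error. Fos and Jun were higher in knockout cells of both sorts. Fosb and Atf3 were higher in stromal knockout cells, while in KLS cells the interval of Fosb covered 0 and Atf3 fell under the UMI minimum. Junb differed by less than its counting error in the sums of both sorts. Of 8596 genes measured in both sorts, 18.7% were lower in KLS and higher in stromal knockout cells and 30.8% went the other way.

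**Figure D1:**
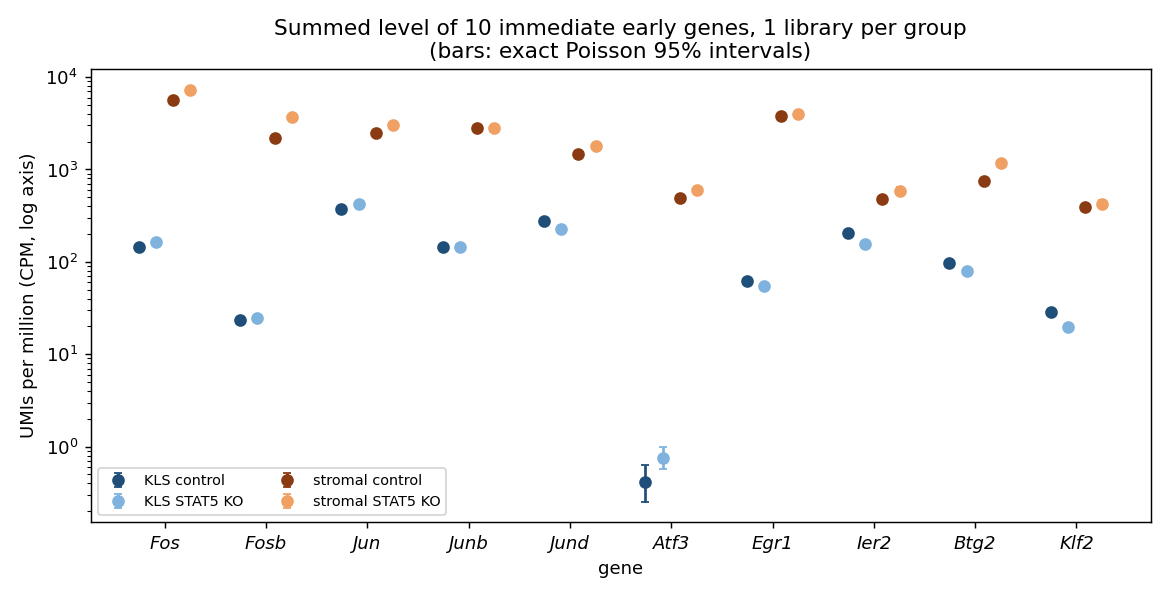
Level of each of the 10 genes in the 4 libraries, in CPM on a log axis, with exact Poisson intervals. All 10 stand higher in both stromal libraries than in both KLS libraries, from Ier2 (207 and 157 CPM in KLS cells, 481 and 592 CPM in stromal cells) to Atf3 (under 1 CPM in KLS cells).

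Among the AP-1 genes, Fos, the partner that cannot pair with itself, stood at 146 CPM in KLS control and 163 CPM in KLS knockout. In stromal cells Fos stood at 5623 CPM in control and 7231 CPM in knockout. Its log2 ratio of knockout over control was 0.17 (0.12 to 0.21) in KLS and 0.36 (0.32 to 0.41) in stromal cells. With the shared barcodes the KLS ratio of Fos was −0.03 (−0.06 to 0.01), so the small excess in knockout cells is seen only without them.
Fosb, a close relative of Fos, stood at 23.3 and 24.7 CPM in KLS control and knockout and at 2180 and 3703 CPM in stromal control and knockout. The stromal log2 ratio of 0.76 (0.70 to 0.83) was the largest among the 10 genes in that sort over these cells, but 0.36 with every shared barcode left out, where Ier2 stood at 0.44. The KLS ratio of 0.09 (−0.02 to 0.19) covered 0, and with the shared barcodes it was −0.26 (−0.34 to −0.18).

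Jun, the main dimer partner, stood at 378 CPM in KLS control and 426 CPM in KLS knockout, and at 2464 and 3030 CPM in stromal control and knockout. Its log2 ratio was 0.17 (0.15 to 0.20) in KLS and 0.30 (0.23 to 0.37) in stromal cells, and of the 10 genes it alone stayed higher in KLS knockout cells with the shared barcodes (0.14).
Junb, often the weaker activator of the Jun proteins, differed by less than counting error between genotypes in the summed cells of each sort. Its stromal ratio moved with the mix of clusters, to 0.17 with knockout cells weighted to the control mix. It was above 0 beyond counting error in 5 of the 8 stromal clusters and below 0 in 2. It stood at 144 and 145 CPM in KLS cells and at 2803 and 2794 CPM in stromal cells. The log2 ratios were 0.01 (−0.03 to 0.05) and −0.00 (−0.07 to 0.06), and with the shared barcodes the KLS ratio was −0.04 (−0.08 to −0.00).
Jund, the Jun gene known for steady expression in resting cells, went opposite ways. It stood at 278 CPM in KLS control and 229 CPM in KLS knockout, a log2 ratio of −0.28 (−0.31 to −0.25). In stromal cells it stood at 1453 CPM in control and 1797 CPM in knockout, a log2 ratio of 0.31 (0.22 to 0.40).
Atf3 was close to absent from KLS cells, with 21 UMIs in control (0.411 CPM) and 58 in knockout (0.759 CPM), below the minimum of 100 UMIs set for KLS genes. In stromal cells Atf3 stood at 495 and 596 CPM (log2 ratio 0.27, 0.11 to 0.42). With the shared barcodes the KLS level of Atf3 was 4.39 CPM in control and 2.53 CPM in knockout, so most of its KLS signal came from them.

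Egr1, the zinc finger factor, stood at 62.9 CPM in KLS control and 55.3 CPM in KLS knockout (log2 ratio −0.19, −0.25 to −0.12). In stromal cells it stood at 3837 and 3976 CPM (0.05, −0.01 to 0.11), a difference within counting error.
Klf2 had the lowest ratio of the 10 in KLS cells, with 28.5 CPM in control and 19.96 CPM in knockout (log2 ratio −0.51, −0.62 to −0.41). Its stromal levels of 393 and 423 CPM differed within counting error (0.11, −0.07 to 0.29).
Ier2 stood at 207 CPM in KLS control and 157 CPM in KLS knockout (−0.39, −0.43 to −0.36), and at 481 and 592 CPM in stromal control and knockout (0.30, 0.14 to 0.46). Ier2 and Jund kept their opposite directions under the 11 alternatives listed for KLS and the 13 for stromal cells, but not in bins of the mitochondrial share of KLS cells, described below.
Btg2 stood at 96.2 CPM in KLS control and 79.2 CPM in KLS knockout (−0.28, −0.34 to −0.23), and at 758 and 1172 CPM in stromal control and knockout (0.63, 0.51 to 0.75). The stromal excess of Btg2 followed 1 cluster, described with the clusters below.

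**Figure D2:**
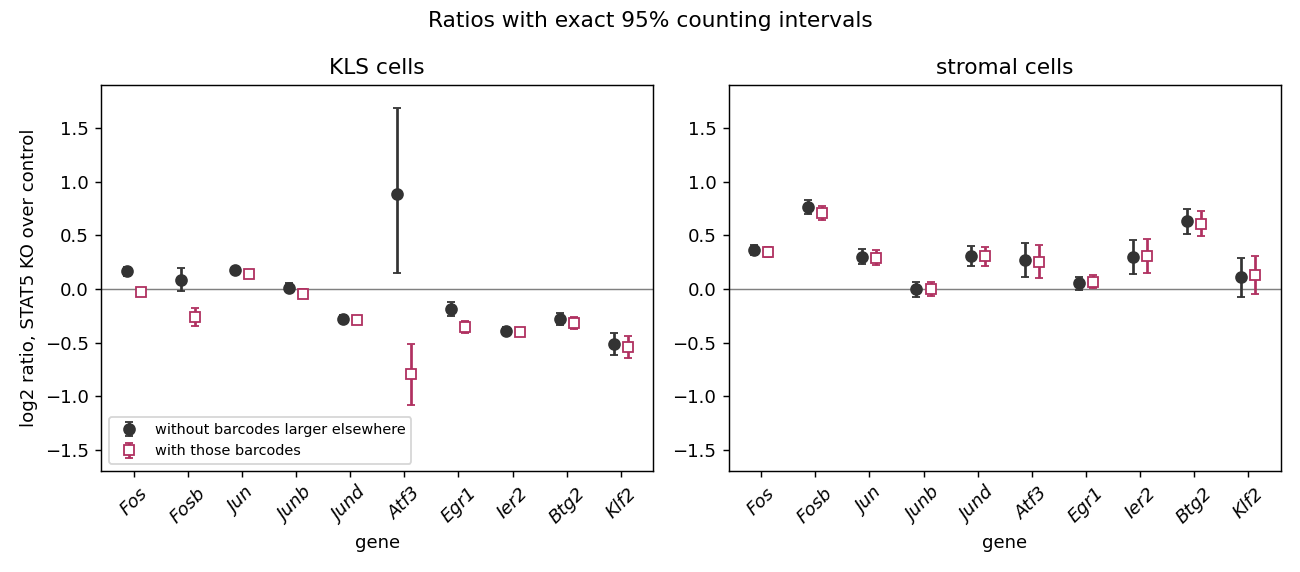
Log2 ratio of STAT5 knockout over control for each gene in KLS cells (left) and stromal cells (right), with exact counting intervals, without (filled) and with (open) barcodes that hold more UMIs in another library. In KLS cells Fos, Fosb, Junb and Atf3 cross 0 when those barcodes are included (Junb from 0.01 to −0.04, Atf3 from 0.89 to −0.79), while the stromal values hardly move.

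Past 1.5-fold (with 10 CPM added to both levels), none of the 9 genes that passed the UMI minimum differed in KLS cells, where 0.34% of 12071 genes were higher and 0.464% lower past that size. In stromal cells Fosb and Btg2 were higher past 1.5-fold and none of the 10 was lower, beside 4.62% of 9701 genes higher and 6.83% lower. That count of 2 was 0 with every shared barcode left out, by the mean of single-cell CPM, in thinned cells, with knockout cells weighted to control shares, and without the clusters led by Col9a2 and Msmp, where the ratio of Fosb was 0.36, 0.58, 0.57, 0.42 and 0.39. By direction alone, 4 of the 9 were higher and 5 lower in KLS knockout cells, beside 48.5% and 51.5% of all genes. In stromal cells 9 were higher and 1 lower, beside 39.4% and 60.6%. The median log2 ratio of the genes that passed was −0.16 in KLS cells and 0.30 in stromal cells, and that of all genes was −0.00 and −0.09.

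The shares of cells with a UMI were compared after every KLS cell was thinned to 5000 UMIs and every stromal cell to 1500, which left out 41 and 905 KLS cells and 41 and 20 stromal cells (control, then knockout). In KLS cells Ier2 was detected in 59.8% of control (58.0 to 61.5) and 51.9% of knockout cells (50.6 to 53.2), and unthinned in 86.4% and 71.6%. Jund was detected in 64.6% (62.9 to 66.3) and 59.3% (58.1 to 60.6) of thinned cells, and unthinned in 88.0% and 77.5%. Klf2 was detected in 11.9% (10.8 to 13.1) and 8.76% (8.05 to 9.52), and unthinned in 26.0% and 16.0%. For these 3 genes thinning left the knockout share lower. For Fos and Jun it turned the order of the shares. Fos was detected in 37.8% of control (36.1 to 39.6) and 41.5% of knockout cells (40.2 to 42.7) after thinning, against 57.9% and 56.1% before it. Jun was detected in 64.9% (63.1 to 66.6) and 69.5% (68.3 to 70.7) after thinning, against 82.5% and 81.7%.

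In stromal cells Fos was detected in 79.6% of control (75.0 to 83.6) and 86.2% of knockout cells (80.9 to 90.4) after thinning, and Fosb in 67.1% (62.02 to 71.95) and 76.8% (70.7 to 82.2). The unthinned shares were 84.1% and 85.3% for Fos and 75.4% and 84.0% for Fosb. Btg2 was detected in 47.8% of control (42.5 to 53.1) and in 112 of 224 knockout cells (43.3 to 56.7%), intervals that overlap although its summed level differed. Its unthinned shares were 62.8% and 66.4%. As a gauge of free RNA, hemoglobin-rich erythroid-like cells of the stromal libraries (124 in control and 95 in knockout, median depths 648 and 633 UMIs) were set beside stromal cells with every cell thinned to 500 UMIs. Fos was detected in 64.3% and 70.5% of stromal cells (control, then knockout) and in 0.807% and 4.21% of erythroid-like cells. For Btg2 the order was the reverse, with 20.6% and 25.8% of stromal cells and 55.7% and 63.2% of erythroid-like cells. Erythroid-like cells are therefore no empty reference for Btg2, whose level there was 1622 CPM in control and 2131 CPM in knockout. Nor are they for Jund, at 1190 and 991 CPM there. Jund was detected in 26.6% and 33.7% of erythroid-like cells, beside 45.2% and 52.9% of stromal cells.

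The level in KLS cells depended on the depth of the cell. In KLS control the 10 genes summed to 2491 CPM in cells of 5000 to 10000 UMIs (871 cells) and to 1084 CPM in cells of 30000 to 100000 UMIs (222 cells). In KLS knockout they summed to 1724 CPM (2421 cells) and 1128 CPM (134 cells). The knockout sum was lower in 5 of 6 depth bins, with log2 ratios from −0.63 in the shallowest bin to −0.06 at 20000 to 30000 UMIs, and 0.06 in the deepest. In that deepest bin Jchain, a gene of plasma cells, stood at 48.5 CPM in control and 235 CPM in knockout, against under 1 CPM in both libraries at 15000 to 30000 UMIs, and its part in the result was not tested. Ier2 was lower in all 6 bins, from −1.03 in the shallowest to −0.34 in the deepest, and so were Jund (−0.85 and −0.18) and Klf2 (−1.03 and −0.42). Fos went from −0.36 at 5000 to 10000 UMIs to 0.25 in the deepest bin, and Jun from −0.20 to 0.31. Cells under 5000 UMIs, which in both libraries held more of these RNAs per UMI than deep cells, were 41 of 3085 in control and 905 of 6726 in knockout.

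**Figure D3:**
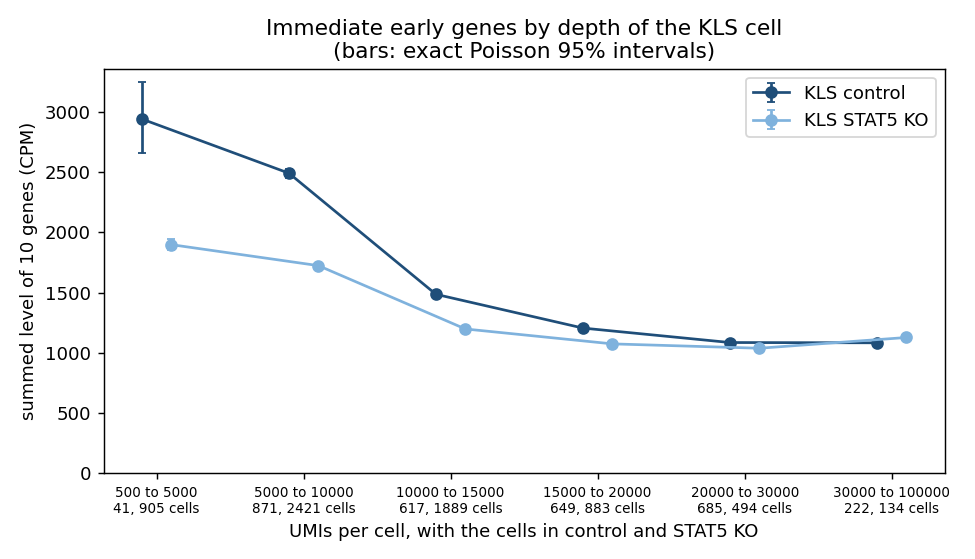
Summed level of the 10 genes (CPM, linear axis) against the depth of the KLS cell in UMIs, for control and STAT5 knockout, with exact Poisson intervals and the number of cells under each bin. The level falls with depth in both libraries up to the bin of 20000 to 30000 UMIs. In the deepest cells it is 1084 CPM in control and 1128 CPM in knockout, so the 2 lines cross. Jchain, a plasma cell gene, stood at 48.5 CPM in control and 235 CPM in knockout in those deepest cells.

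Restricting both KLS libraries to cells of 5000 to 15000 UMIs brought their median depths to 9279 and 9375 UMIs. In that window all 9 genes that passed the UMI minimum were lower in knockout cells, beside 51.7% of 11198 genes lower and 48.3% higher. Atf3, under the minimum, had 15 UMIs in control and 37 in knockout (1.04 and 0.903 CPM). The sum of the 10 genes had a log2 ratio of −0.46. Jund (405 CPM in control, 251 in knockout), Egr1 (105 and 63.7 CPM), Ier2 (312 and 175 CPM) and Klf2 (40.6 and 20.6 CPM) were lower past 1.5-fold and none was higher past it, beside 1.36% and 3.06% of all genes. Fos stood at 206 and 175 CPM (−0.24) and Jun at 504 and 463 CPM (−0.12), the reverse of their order over all KLS cells. The mix of cells still differed in the window, where the stem gate described next held 32.3% of control and 15.4% of knockout cells. Depth, mitochondrial share and genotype moved together in these 2 libraries, and their parts in the result were not tested.

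Bins of the mitochondrial share gave the opposite direction at 3 to 5%. KLS control cells lay mostly at 4 to 5% (1833 cells) and KLS knockout cells at 2 to 3% (3655 cells, beside 8 in control). At 3 to 4% the 10 genes summed to 1101 CPM in control (617 cells) and 1327 CPM in knockout (2346 cells), a log2 ratio of 0.27 (0.24 to 0.30). At 4 to 5% they summed to 1359 CPM in control and 1722 CPM in knockout (288 cells), a log2 ratio of 0.34 (0.29 to 0.39). At 5 to 10% the knockout sum was lower, with 1929 CPM in control (623 cells) and 1460 CPM in knockout (207 cells), a log2 ratio of −0.40 (−0.48 to −0.32). The control sum thus rose with the mitochondrial share over these 3 bins, and the genotype difference took both signs. Depth was not matched in these bins. In each of the 3, knockout cells held fewer UMIs per cell on average than control cells, and the part of depth was not tested. Jchain stood at 33.0 CPM in control and 0.278 CPM in knockout at 3 to 4%, and its part was not tested.
The genes that were lower over all KLS cells were not lower beyond counting error in the 2 bins at 3 to 5%. Ier2 stood at 154 CPM in control and 169 CPM in knockout at 3 to 4% (0.13, 0.06 to 0.21) and at 209 and 227 CPM at 4 to 5% (0.12, −0.02 to 0.26). Jund was near level at 3 to 4% (−0.04, −0.10 to 0.02) and higher in knockout cells at 4 to 5%, with 272 and 330.5 CPM (0.28, 0.16 to 0.40). Klf2 was at 0.15 (−0.06 to 0.37) and 0.48 (0.12 to 0.83), and Btg2 at 0.08 (−0.03 to 0.19) and 0.05 (−0.17 to 0.27). Egr1 was higher in knockout cells in both bins, with 35.8 and 59.7 CPM at 3 to 4% (0.74) and 60.1 and 153 CPM at 4 to 5% (1.35), as was Fos (0.73 and 0.32). At 5 to 10% Ier2 (−0.68), Jund (−0.67), Btg2 (−0.53) and Egr1 (−0.79) were lower in knockout cells beyond counting error.

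Within KLS cells, lineage gates were set on thinned cells from a few RNAs: Hlf, Mecom and Procr for stem-like cells, Dntt for lymphoid, Pf4 for megakaryocyte, Klf1 and Gata1 for erythroid, and Mpo, Elane, Prtn3 and Ctsg for granule-bearing cells. In KLS control the sum of the 10 genes was 1782 CPM in the stem gate (702 cells), 1400 CPM in the lymphoid gate (662 cells), 846 CPM in the granule gate (261 cells) and 750 CPM in the erythroid gate (46 cells). In KLS knockout it was 1634 CPM (758 cells), 1208 CPM (1336 cells), 985 CPM (1080 cells) and 1115 CPM (100 cells). The stem gate held the highest sum in both libraries. It was also the shallowest gate, with median depths of 9860 UMIs in control and 8682 in knockout, beside 21494 and 14215 in the granule gate.
The genotype difference took both signs over the gates. The knockout sum was lower in the stem gate (−0.13, −0.16 to −0.09), in the lymphoid gate (−0.21, −0.24 to −0.18) and in cells of several gates (−0.36, −0.41 to −0.32). It was higher in the megakaryocyte gate (0.30, 0.20 to 0.41), the erythroid gate (0.57, 0.46 to 0.69), the granule gate (0.22, 0.17 to 0.27) and cells of no gate (0.15, 0.12 to 0.17). No test of the difference between gates was made. Within cells of 5000 to 15000 UMIs, a split added after the data were seen, the knockout sum was lower in 5 of the 7 gates, among them the stem gate (2145 CPM in control, 1681 in knockout, −0.35, −0.39 to −0.31), the lymphoid gate (2141 and 1317 CPM, −0.70) and the granule gate (1417 and 1154 CPM, −0.30). It stayed higher in the erythroid gate (1241 and 2648 CPM), which held 15 and 52 cells there, and was close to level in the megakaryocyte gate (0.01, −0.17 to 0.20).

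By gene, Ier2 was lower in 6 of the 7 gates, with −0.53 (−0.63 to −0.44) in the stem gate and the exception of the erythroid gate (0.61). Jun was higher in 6 of 7, with 0.77 (0.57 to 0.97) in the megakaryocyte gate and 0.93 (0.72 to 1.14) in the erythroid gate, where it stood at 216 CPM in control and 411 CPM in knockout. Btg2 was lower in the lymphoid gate, from 140 CPM in control to 95.8 CPM in knockout (−0.55, −0.65 to −0.45), and higher in the erythroid gate, from 36.6 to 67.7 CPM (0.89, 0.38 to 1.42). Klf2 was lower in the stem gate, 40.9 beside 27.1 CPM (−0.59, −0.84 to −0.35), and in the lymphoid gate, 40.7 beside 28.0 CPM (−0.54, −0.73 to −0.35). Egr1 was level in the stem gate at 111 and 107 CPM (−0.05, −0.19 to 0.08) and lower in cells of several gates, 82.3 beside 34.5 CPM (log2 ratio −1.25). Knockout cells were shallower than control cells in all 7 gates. Median depths were 18031 UMIs in control and 11032.5 in knockout for the megakaryocyte gate, and 19390.5 and 13512 for the erythroid gate. The gates were not split by depth for single genes.

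The stromal cells fell into 8 clusters, built without the 10 genes. Cxcl12-abundant-like cells, named for the chemokine that holds blood stem cells in the marrow and led by Hp, Adipoq and Esm1 (107 cells in control, 56 in knockout), had a sum of 29630 CPM in control and 36771 CPM in knockout (0.31, 0.27 to 0.35). The cluster led by Kera, Tnmd and Angptl7, genes of tendon (105 and 61 cells), had 12418 and 17283 CPM (0.48, 0.41 to 0.54). The cluster led by Pi16, Has1 and Procr (63 and 29 cells) had 21738 and 24152 CPM (0.15, 0.09 to 0.22), and that led by Ccl11, Gpc3 and Hmcn2 (65 and 39 cells) had 19671 and 20290 CPM (0.04, −0.03 to 0.11). Osteoblast-like cells (24 and 14) had 11125 and 9227 CPM (−0.27), the cluster led by Msmp, Prg4 and Cytl1 (15 and 17) had 15052 and 12637 CPM (−0.25), and the pericyte-like cells (18 and 3) had 18227 and 7644 CPM (−1.25). The excess in the summed stromal cells was thus present in the Cxcl12-abundant-like and Kera clusters, which hold the most cells, and was not a feature of all 8.

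Chondrocyte-like cells, led by Col9a2, Col9a3 and Col2a1, were 6 in control and 25 in knockout, with 20842 and 31057 CPM (0.58, 0.49 to 0.66). They were also deep, with median depths of 11244 and 11460 UMIs, and the 12 listed chondrocyte markers summed to 6472 CPM over stromal control and 28348 CPM over stromal knockout cells. Btg2 was at 3369 CPM in these cells in control (2944 to 3838) and 2612 CPM in knockout, and at 881 CPM or less in each of the other stromal clusters. Btg2 was lower in knockout cells in 7 of the 8 clusters, the Kera cluster being the exception (0.33), although it was higher in the sum. Without the clusters led by Col9a2 and Msmp, an alternative chosen after seeing the data, the stromal log2 ratio of Btg2 was −0.04 and that of the summed genes 0.23, and no gene was past 1.5-fold. With knockout cells weighted to the control mix of clusters, Btg2 stood at −0.09 and the sum at 0.23.
Fosb was higher in 5 of the 8 clusters and lower in 3. It was higher in the Cxcl12-abundant-like cells, at 3409 CPM in control and 5588 CPM in knockout (0.71, 0.60 to 0.83). In the Kera cluster it was also higher (0.47, 0.23 to 0.72). It was lower in the Ccl11 cluster (−0.25, −0.48 to −0.02) and near level in the Pi16 cluster (−0.01, −0.23 to 0.20). The chondrocyte-like cells held 289 of 3271 Fosb UMIs in stromal control and 1894 of 3822 in stromal knockout. Klf2, near level in the sum, was higher in the Cxcl12-abundant-like cells at 253 and 486 CPM (0.94, 0.53 to 1.36), and Jun there stood at 3617 and 5360 CPM (0.57, 0.45 to 0.68). Over the 8 clusters Klf2 was higher in 4 and lower in 3, with no UMI in the pericyte-like knockout cells. Jun was higher in 4 and lower in 4.

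**Figure D4:**
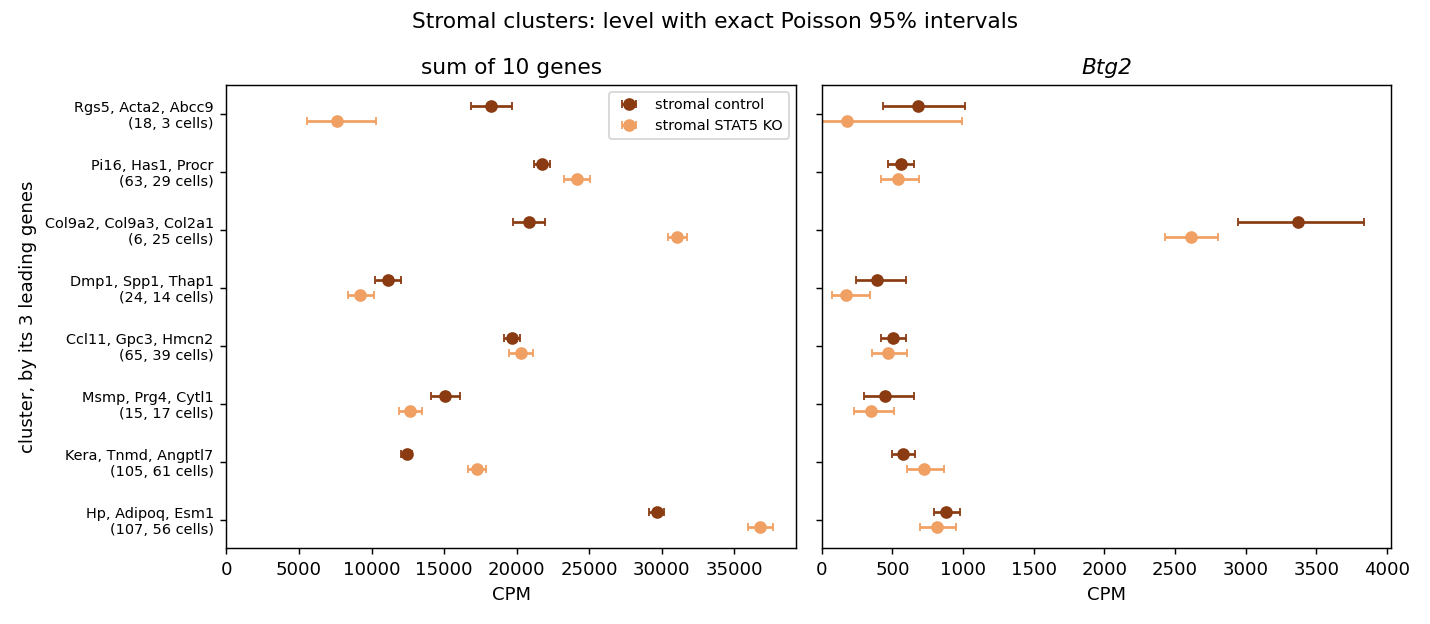
Summed level of the 10 genes (left) and level of Btg2 (right) in each stromal cluster, in CPM with exact Poisson intervals, for control and STAT5 knockout, with the cells of each in parentheses. Btg2 reaches 3369 CPM in the Col9a2 cluster, which has 6 cells in control and 25 in knockout.

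Between sorts the 10 genes differed far more than between genotypes. The summed level was 15.02-fold higher in stromal than in KLS cells in control (14.8 to 15.2) and 19.5-fold in knockout (19.2 to 19.7). In control the fold was 93.5 for Fosb, 61.1 for Egr1, 38.6 for Fos, 19.4 for Junb, 13.8 for Klf2, 7.88 for Btg2, 6.53 for Jun, 5.22 for Jund and 2.32 for Ier2. Atf3 had the highest fold, 1204 (782 to 1958), on 21 UMIs in KLS control. The sorts differ in cell type, in the digestion the protocol describes for stromal cells alone and in the age of the mice, and these cannot be told apart here. The heat shock genes, which heat and handling are known to raise, were counted between genotypes in the same way. Of 13 measured in KLS cells 12 were higher in knockout, beside 48.5% of all genes. Hspa1a (6.36 and 21.7 CPM), Hspa1b (6.88 and 25.95 CPM) and Hsph1 (43.7 and 92.2 CPM) were past 1.5-fold, beside 0.34% of all genes. Of 14 measured in stromal cells 6 were higher and 8 lower, beside 39.4% and 60.6% of all genes. Hspa1a (943 and 666 CPM) was among the 8 lower. Past 1.5-fold, 1 was higher and 1 lower in stromal cells, beside 4.62% and 6.83% of all genes. The medians were 0.40 and −0.19, beside −0.00 and −0.09 for all genes. The part of handling in these differences was not tested.

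Single cells carried several of the genes at once. Of the 10 genes, the median thinned cell had 3 in either KLS library, 6 in stromal control and 7 in stromal knockout. Cells with 5 or more of the genes were 29.8% of KLS control (28.2 to 31.5), 26.4% of KLS knockout (25.3 to 27.6), 76.5% of stromal control (71.8 to 80.8) and 80.4% of stromal knockout (74.5 to 85.4). The tenth of cells with the most UMIs of these genes held 31.9% of them in KLS control, 30.4% in KLS knockout, 29.2% in stromal control and 26.5% in stromal knockout.

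**Figure D5:**
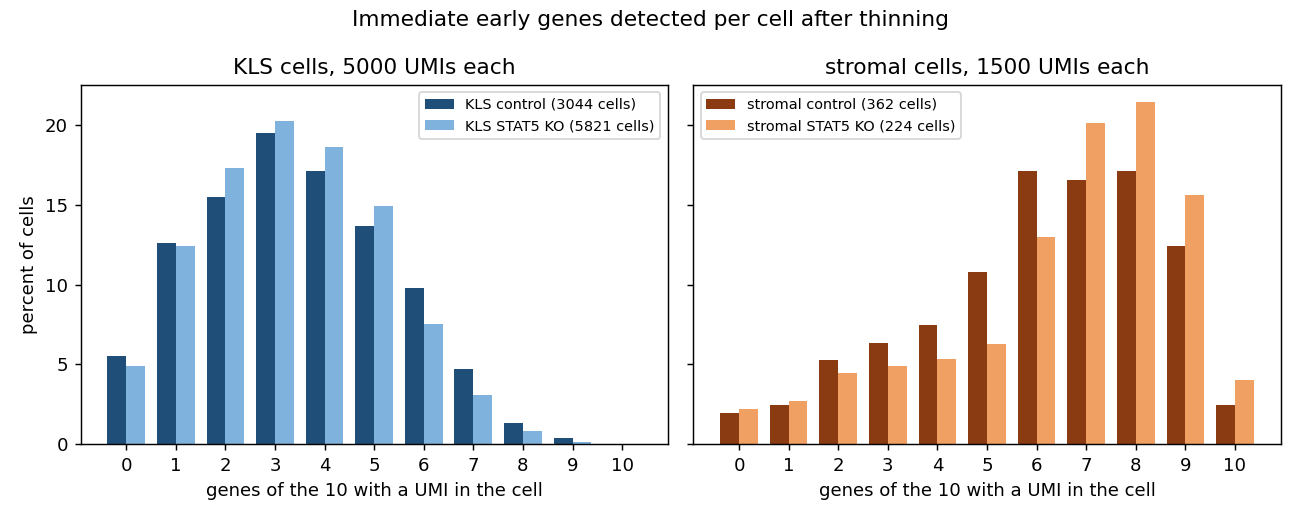
Percent of cells by how many of the 10 genes had a UMI, in KLS cells thinned to 5000 UMIs (left) and stromal cells thinned to 1500 UMIs (right). The KLS bars peak at 3 genes in both libraries, and the stromal bars lie higher, with 9 cells of each stromal library holding all 10.

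Over thinned cells the genes varied together to a moderate degree. The median Pearson r over the 45 pairs was 0.18 in KLS control, 0.14 in KLS knockout, 0.31 in stromal control and 0.29 in stromal knockout. The highest pair was Jun with Jund in KLS cells (0.35 and 0.33) and Fos with Egr1 in stromal cells (0.67 and 0.69). Cells of a library share its preparation and gene content, so these values describe the libraries. Of 3023 genes detected in at least 5% of thinned cells of every library, the gene most like the summed 10 was Zfp36, whose product speeds the decay of AU-rich RNAs (mean r over the 4 libraries 0.44). Dusp1, a phosphatase of stress kinases (0.39), H3f3b, a histone variant gene (0.34), Ier3 (0.34) and Ppp1r15a (0.33) followed, as did Ier5 (0.31), Nr4a1 (0.31) and the nuclear RNAs Malat1 and Neat1 (0.30 each). Zfp36 stood at 167 and 143 CPM in KLS control and knockout and at 717 and 969 CPM in stromal control and knockout.

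The other 31 immediate early genes on the list were split as follows. In KLS cells 25 passed the UMI minimum, 10 higher and 15 lower in knockout, with 1 lower past 1.5-fold, Rhob, which encodes a small GTPase (82.9 beside 51.9 CPM). In stromal cells all 31 passed, 23 higher and 8 lower, with Nr4a2 (174 beside 339 CPM) and Trib1 (169 beside 309 CPM) higher past 1.5-fold and Egr3 (113 beside 64.9 CPM) lower. Their medians were −0.05 and 0.20. Of the 25 measured in both sorts, 10 were lower in KLS and higher in stromal knockout cells, 2 the reverse, 8 higher in both and 5 lower in both. Of all genes measured in both sorts, 18.7% were lower in KLS and higher in stromal knockout cells and 30.8% the reverse.
Genes upstream, the kinases and serum response factors that switch these genes on, showed no member past 1.5-fold in KLS cells (10 of 23 higher, median −0.01). In stromal cells 8 of 22 were higher, and Mkl1 (20.7 and 8.72 CPM), Mkl2 (26.0 and 11.6 CPM) and Creb1 (47.3 and 25.2 CPM in control and knockout) were lower past 1.5-fold (median −0.10). Feedback genes of the kinases had 5 of 12 higher in each sort, with 2 higher and 1 lower past 1.5-fold in stromal cells. Among them Dusp2 stood at 208 and 144 CPM in KLS control and knockout, under the 1.5-fold limit, and Errfi1 at 545 and 877 CPM in stromal control and knockout, past it. AP-1 partners outside the 10 had 8 of 13 higher in KLS and 7 of 14 in stromal cells, 2 of the latter past 1.5-fold. Of the relatives of Btg2, 1 of 4 was higher in KLS cells, with Btg3 at 25.03 and 17.7 CPM and Tob1 at 23.2 and 17.4 CPM in control and knockout, and 2 of 4 in stromal cells. Of the relatives of Klf2, 5 of 10 were higher in KLS and 5 of 9 in stromal cells. Known STAT5 targets had 7 of 15 higher in KLS and 8 of 13 in stromal cells. Past 1.5-fold, 1 of these targets was higher in KLS knockout cells, and 1 was higher and 1 lower in stromal knockout cells. Beside the counts of all these lists, 48.5% of all genes were higher in KLS knockout cells and 39.4% in stromal knockout cells. Past 1.5-fold, 0.34% were higher and 0.464% lower in KLS cells, and 4.62% and 6.83% in stromal cells. No counting intervals are given for the genes of these lists.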

How the data were processed

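Raw counts of UMIs per gene and cell barcode were deposited for 4 libraries (10x Chromium, version 3 chemistry, per the labels' protocols). Cell Ranger and the build GRCm38 (mm10) are named in the submitters' processing notes, and software version 3.1.0 is given per the file headers. The annotation release, the strand rule and the cell calling are not given in the sources used here, so reads of overlapping or antisense genes cannot be told apart. The libraries held 3747 barcodes and 55138419 UMIs (KLS control), 7511 and 82466835 (KLS knockout), 672 and 1874023 (stromal control) and 425 and 1270763 (stromal knockout).

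Cells needed 200 or more genes and no more than 10% mitochondrial UMIs. The top Scrublet scores (scanpy 1.11.5) were left out at 0.8% of barcodes per 1000 barcodes. Scrublet's own threshold marked 0, 1, 0 and 1 barcodes. Barcodes that held more UMIs in another library were left out. Stromal libraries were clustered (2000 variable genes, 30 components, 15 neighbours, Leiden at resolution 1, igraph 0.11.9) without the 10 genes, other immediate early, heat shock and mitochondrial genes. Clusters at 20% or more of the KLS level of Ptprc, or with 10% or more hemoglobin UMIs, were left out of the stromal cells, the latter limit being set after the data were seen. A cluster took a name from at least 3 fixed markers among its 10 leading genes. Gates asked for UMIs of at least 2 of the 3 stem genes, 2 Dntt UMIs, 2 Pf4 UMIs, 2 UMIs of Klf1 plus Gata1, or 10 UMIs of the granule genes.

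Counts were summed over cells and scaled to CPM. Sums carry exact Poisson intervals, shares exact Clopper-Pearson intervals and ratios exact conditional binomial intervals (scipy 1.17.1). No test was possible with 1 library per group. The ratio step was tested on simulated data. Genes named are the 10 members, the genes of the fixed lists and markers, and the 10 genes most like the members, of which 1 is not reported here. The members and lists were chosen with earlier results of these data known. Past 1.5-fold was counted with 10 CPM added, among genes with at least 100 UMIs (KLS) or 20 (stromal). Alternatives covered the cell filter, doublets, shared barcodes, scaling (with edgeR 4.0.16 TMM factors on the deposited counts), depth, cell mix, clustering, pseudocount and UMI minimum.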

Additional observations from a re-analysis of the deposited data

Results flagged for a closer look

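For 5 genes the difference between genotypes had opposite signs in the sorts, with counting intervals that did not overlap. Opposite signs were also the pattern that chose the genes, so these values are a description. With 1 library per group the difference between sorts was not tested. The log2 ratio in stromal cells minus that in KLS cells was 0.58 for Jund, 0.24 for Egr1, 0.70 for Ier2, 0.91 for Btg2 and 0.62 for Klf2. The stromal interval covered 0 for Egr1 and Klf2. For Btg2 the stromal value was −0.04 without the clusters led by Col9a2 and Msmp. With every shared barcode left out the stromal values of Egr1, Klf2 and Btg2 were −0.08, −0.30 and −0.25. In KLS cells at 4 to 5% mitochondrial share, Jund, Egr1, Ier2, Btg2 and Klf2 stood at 0.28, 1.35, 0.12, 0.05 and 0.48. Knockout cells were shallower than control cells in that bin.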

How the results depend on the processing

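With 1 library per group no library could be left out. No paired analysis was possible because each group has 1 library and the result comes from no test. The log2 ratio of the summed genes in KLS cells (−0.07) turned to 0.02 with a cell filter of 500 or more genes and no more than 5% mitochondrial UMIs. It was −0.13 with the shared barcodes, −0.04 with TMM factors, −0.10 without mitochondrial, ribosomal and hemoglobin genes in the scale, −0.15 as a mean of single-cell CPM, −0.20 in thinned cells, −0.01 with knockout cells weighted to control gates and −0.46 at 5000 to 15000 UMIs, where 4 genes were past 1.5-fold in place of 0. The stromal sum (0.31) was 0.11 with every shared barcode left out (227 and 80 cells), 0.41 with TMM factors, 0.25 as a mean of single-cell CPM, and 0.23 both with weighted cells and without the clusters led by Col9a2 and Msmp. The stromal count past 1.5-fold (2) was 0 with every shared barcode left out, by mean CPM, thinned, weighted or without those clusters, and 1 over all kept cells of the stromal libraries. In KLS cells Egr1 turned to 0.06 with the stricter cell filter and 0.01 weighted, Fosb (0.09) to −0.26 with the shared barcodes, −0.01 thinned and −0.35 at 5000 to 15000 UMIs, Junb (0.01) to −0.04, −0.06 by mean CPM, −0.10 thinned and −0.46 at 5000 to 15000 UMIs, Fos to −0.03 with the shared barcodes and −0.24 at 5000 to 15000 UMIs, Jun to −0.12 there, and Atf3 to −0.79 with the shared barcodes, −0.09 thinned and −0.20 at 5000 to 15000 UMIs. In stromal cells Atf3 turned to −0.57 with every shared barcode left out, −0.03 by mean CPM, −0.02 thinned, −0.05 weighted and −0.10 without the clusters, Klf2 to −0.30 and Egr1 to −0.08 with every shared barcode left out, and Btg2 to −0.25 with every shared barcode left out, −0.09 weighted and −0.04 without the clusters. Stromal Junb (−0.00) turned to 0.17 weighted, 0.18 without the clusters, 0.12 by mean CPM and 0.09 thinned. It turned to 0.08 with every shared barcode left out and 0.10 with TMM factors. Without mitochondrial, ribosomal and hemoglobin genes in the scale it was 0.01. The cause of these changes was not tested, other than that fewer cells enter where barcodes or clusters are left out. Jund, Ier2, Btg2 and Klf2 kept their direction in KLS cells under the 11 alternatives listed. They did not keep it in bins of the mitochondrial share, which were not matched for depth (0.28, 0.12, 0.05 and 0.48 at 4 to 5%). Fos, Fosb, Jun, Jund and Ier2 kept theirs in stromal cells under all 13. Depth limits Atf3 in KLS cells, at 21 and 58 UMIs.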
